A study of Mus musculus with 24 samples.

Results

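Fast-twitch skeletal muscle fibres carry their own forms of the contractile proteins, and 10 genes that encode them or their support proteins were followed here in mouse adipose tissue. They were Myh4, Myh1, Myh2, Acta1, Ckm, Mylpf, Tnnt3, Tnnc2, Actn3 and Atp2a1, taken by symbol from the 54232 genes of the count table, and all 10 were found. All 10 passed the filter of more than 10 counts over the 24 libraries, as did 26116 genes in all. The genes were chosen by their role in fast muscle with their summed counts per library already known, so that their levels by library are a description and not a test.

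The libraries came from visceral adipose tissue of male C57BL6 mice, 10 weeks old per the series description. Control mice had a sham operation and a lentivirus encoding GFP, NaKtide mice a sham operation and a lentivirus encoding NaKtide linked to GFP, PNx mice a 5/6 nephrectomy with the GFP virus, and PNx+NaKtide mice a 5/6 nephrectomy with the NaKtide virus, with 6 mice and 6 libraries in each group. NaKtide is a peptide from the Na,K-ATPase that blocks signalling of this pump through the kinase Src. All mice, Controls included, thus received virus by intraperitoneal injection, and in all of them an adiponectin promoter, active in adipocytes, drove the insert. The total counts per library ran from 679250 to 2979505, so that 3 counts corresponded to between 1.01 and 4.42 CPM (the count scaled to a fixed library total), and lower levels could not be told from 0.

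In a muscle fibre, myosin heavy chains on the thick filament pull on actin in the thin filament. Troponin on the thin filament binds calcium and permits the stroke, the calcium is then pumped back into the sarcoplasmic reticulum, and creatine kinase restores the ATP. Adult fast fibres are typed by their heavy chain, Myh2 for type IIA, Myh1 for type IIX and Myh4 for type IIB, the fastest. White fat has no such fibres of its own.

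The 3 heavy chain genes lie in a row on chromosome 11 (GRCm38, plus strand), Myh2 at 67171027 to 67197517, Myh1 at 67200052 to 67224575 and Myh4 at 67238029 to 67260446. Bases upstream of their RefSeq start sites (GRCm38.p6) are shown because the genes were high together in 1 library, and because the proximal promoters of Myh2, Myh1 and Myh4 hold 1 identical run. Capitals mark that run of 20 bases in the 3 myosin genes, and in Acta1, the skeletal alpha-actin gene, a CArG box and the TATAAA box.
Myh2: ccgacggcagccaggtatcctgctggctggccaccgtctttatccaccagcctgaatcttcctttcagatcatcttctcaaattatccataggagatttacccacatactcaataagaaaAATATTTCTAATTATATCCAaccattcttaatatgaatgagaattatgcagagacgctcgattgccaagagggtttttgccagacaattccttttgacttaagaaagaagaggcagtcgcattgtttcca
Myh1: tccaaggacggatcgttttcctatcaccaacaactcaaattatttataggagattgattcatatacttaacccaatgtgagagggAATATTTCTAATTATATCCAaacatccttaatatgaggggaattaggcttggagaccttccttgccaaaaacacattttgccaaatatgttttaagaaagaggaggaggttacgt
Myh4: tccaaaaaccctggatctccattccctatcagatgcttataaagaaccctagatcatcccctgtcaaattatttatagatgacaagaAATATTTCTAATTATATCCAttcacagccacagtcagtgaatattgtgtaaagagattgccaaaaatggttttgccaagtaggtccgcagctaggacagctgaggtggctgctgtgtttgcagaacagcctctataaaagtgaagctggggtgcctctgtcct
Acta1: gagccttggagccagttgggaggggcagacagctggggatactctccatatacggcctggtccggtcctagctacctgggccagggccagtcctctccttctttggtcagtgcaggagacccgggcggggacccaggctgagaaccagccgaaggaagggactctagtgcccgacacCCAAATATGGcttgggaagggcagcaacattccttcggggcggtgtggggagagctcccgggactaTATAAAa
The Myh2 sequence is chr11:67170777-67171026, the Myh1 sequence chr11:67199852-67200051, the Myh4 sequence chr11:67237562-67237811 and the Acta1 sequence chr8:123894776-123895025 on the minus strand. The sequences of Myh2, Myh4 and Acta1 reach up to the RefSeq start site, whereas that of Myh1 ends where its GENCODE gene begins, short of the RefSeq start site at 67200102. Counted from the RefSeq start sites, the shared run began 130 bases upstream of the start site in Myh2, 165 in Myh1 and 163 in Myh4. It was found in 3 of the 32851 mouse promoters searched, which were these 3. RefSeq promoters were matched for 8 of the 10 genes, all but Tnnt3 and Actn3. In the 250 bases before the start site, a TATAAA box on the strand of the gene stood in 3 of the 8, against 7.59% of all promoters. An E-box, the palindrome CANNTG bound by the MyoD family among other factors, stood in 6 of the 8, against 66.2% of all promoters. A CArG box, the site of serum response factor, stood in 2 of the 8 (Acta1, 73 bases upstream, and Myh4), against 1.47%. The MEF2 site was searched by a strict pattern only, which stood in 0 of the 8, against 0.508%. Looser forms of that site were not searched, and the Myh1 and Myh4 sequences above each hold a run that a looser form would match. The 0 thus does not show that these promoters lack a MEF2 site. These matches describe letters in the window only.

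Which strand the counts refer to bears on every value below. The kit marks strand, but no source used here gives the strand setting of the counting. The mitochondrial genome encodes 12 mRNAs on its plus strand and 1, mt-Nd6, on its minus strand. In every library mt-Nd6 had at least as many counts as the other 12 together, with 1648 to 8863 CPM against 584 to 6993 CPM and a ratio with a median of 3.55 and a highest value of 9.24. In mammalian tissue the 12 are by far the more abundant mRNAs. In these 13 genes the order was thus the reverse. Over the nuclear genes as a whole the strand of the counts was not measured, and the reads were not analysed here, so that the count of a gene may leave out reads of its mRNA and may hold reads of a gene on the other strand. The values are therefore given as counts assigned to each gene in the deposited table, and those of opposite-strand genes are set beside them. Of the 10 genes, Myh1, Myh2, Ckm, Tnnc2 and Atp2a1 overlap exons of an oppositely oriented gene in GENCODE M21, and Myh4, Acta1, Mylpf, Tnnt3 and Actn3 do not.

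A single library stood apart. In NaKtide replicate 6 the 10 genes held 9317 counts, 5843 CPM or 0.584% of the library. In the other 23 libraries their sum ran from 17.5 to 92 CPM, with a median of 69.6. All 10 genes had their highest CPM in this library, and 5.14% of all genes tested did. Each of the 10 also exceeded the next highest library at least 5 times, as 0.437% of all genes tested did. These shares describe the choice of genes and are not support for it. Total depth did not set this library apart, with 1594477 counts. Comparisons that include the NaKtide group are given below with and without this library.

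**Figure D1:**
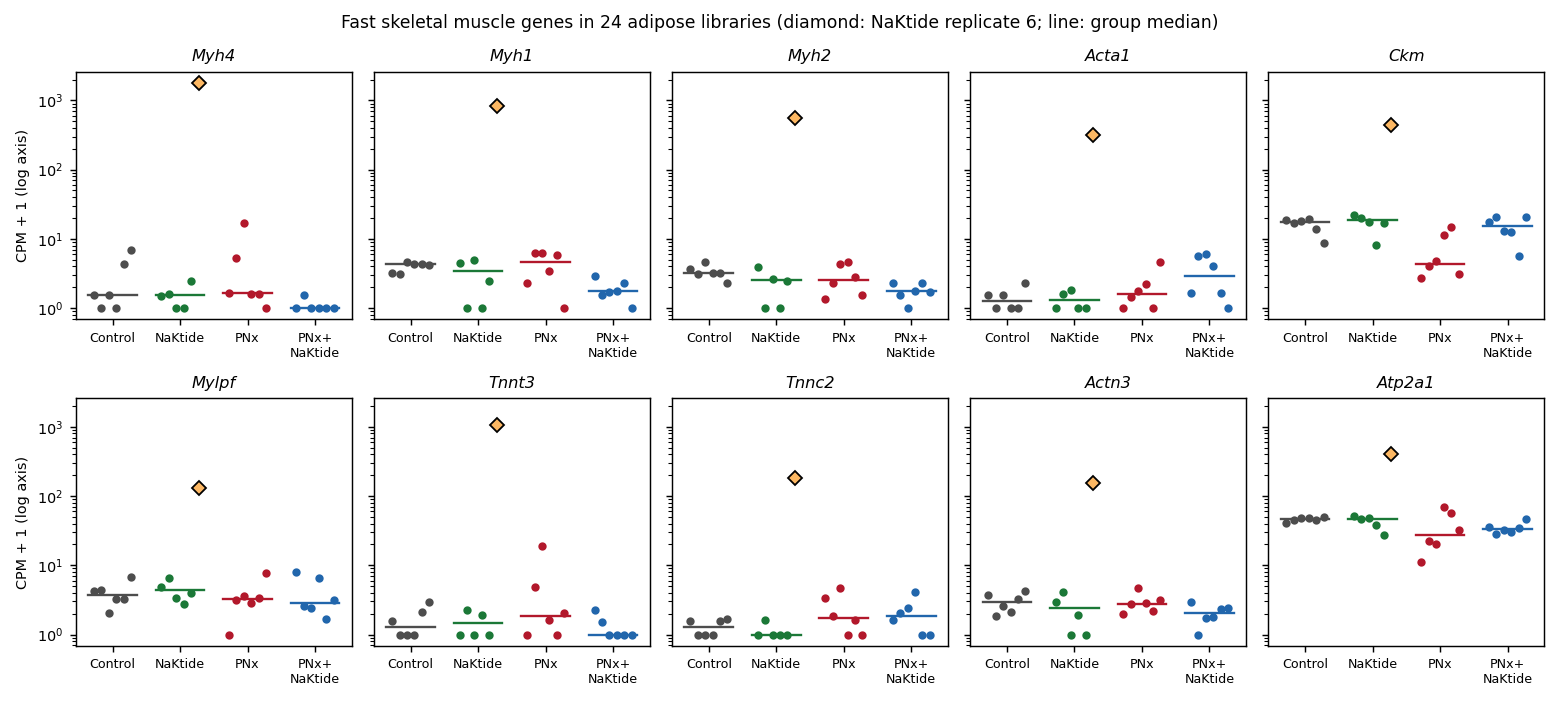
CPM + 1 on a log axis for each of the 10 genes in the 24 libraries, by group, with 1 point per library, a line at the group median and a diamond for NaKtide replicate 6. The diamond lies above every other library in all 10 panels, at 131 CPM for Mylpf and up to 1765 CPM for Myh4, while the other 23 libraries stay at or below 69.1 CPM.

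Myh4, the heavy chain of type IIB fibres, showed the widest contrast. It had 2814 counts in NaKtide replicate 6 and 0 or 1 in the other 5 NaKtide libraries. Its counts in Controls ran from 0 to 9 with a median of 1, in PNx from 0 to 43 with a median of 1.5, and in PNx+NaKtide from 0 to 1 with a median of 0. In CPM it stood at 1765 in the 1 library, against 1.94 pooled over the other 23, a ratio of 910. Of all its counts in the series, 97.3% were in that library. PNx replicates 3 and 2 came next, with 43 and 10 counts, followed by Control replicates 6 and 5 with 9 and 6.

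Myh1, the heavy chain of type IIX fibres, had 1323 counts in NaKtide replicate 6. Elsewhere it had 4 to 7 counts in Controls (median 5.5), 0 to 7 in the other NaKtide libraries (median 1), 0 to 14 in PNx (median 6) and 0 to 3 in PNx+NaKtide (median 1). Myh2, the heavy chain of type IIA fibres, had 898 counts there, against 2 to 7 in Controls (median 4.5), 0 to 6 in the other NaKtide libraries (median 1), 1 to 9 in PNx (median 3) and 0 to 2 in PNx+NaKtide (median 1). The ratio to the pooled other libraries was 348 for Myh1 and 343 for Myh2. For Myh1 the lowest Control stood at 2.11 CPM and the highest PNx+NaKtide library at 1.92 CPM, near the floor of 3 counts. This is not read as a separation of the groups, and the share of all genes with such a gap was not measured. These groups differ in both operation and virus, and no comparison here sets them against each other. For Myh2 the lowest Control met the highest PNx+NaKtide libraries at 2 counts, and all other pairs of groups overlapped for both genes. The 3 heavy chains are close copies. Of the 50-base words in their transcripts, 18.9% in Myh4, 25.4% in Myh1 and 22.9% in Myh2 also occur in transcripts of other genes, mostly in one another and in Myh8, so that reads from those stretches cannot be assigned with certainty.

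The thin filament, light chain and Z-disc genes also had their highest level in NaKtide replicate 6, but the library that came next differed between genes. By CPM it was PNx replicate 3 for Tnnt3, Tnnc2, Actn3, Myh4 and Myh1, PNx replicate 4 for Myh2, PNx+NaKtide replicate 3 for Acta1 and PNx+NaKtide replicate 1 for Mylpf. Acta1 (ENSMUSG00000031972, chromosome 8, 123891769 to 123894751), the main actin of skeletal muscle, had 500 counts in NaKtide replicate 6 and 0 to 9 in every other library, the 9 in PNx+NaKtide replicate 2, where Myh4 had 1 count. Its group medians were 0.5 in Controls, 1.5 in PNx and 2.5 in PNx+NaKtide, all within the 3 counts that could not be told from 0. Tnnt3 (ENSMUSG00000061723, chromosome 7, 142498836 to 142516009), fast troponin T, had 1695 counts there, 48 in PNx replicate 3, 9 in PNx replicate 2 and 3 or fewer in the remaining 21 libraries, 12 of which were at 0. Mylpf (ENSMUSG00000030672, chromosome 7, 127208890 to 127214298), the fast regulatory light chain of myosin, had 209 counts there. Its other libraries ran from 2 to 9 counts in Controls, 2 to 9 in NaKtide, 0 to 13 in PNx and 1 to 11 in PNx+NaKtide, so that the 4 groups overlapped. Tnnc2 (ENSMUSG00000017300, chromosome 2, 164777161 to 164779967), the calcium-binding troponin C of fast fibres, had 286 counts there and 0 to 10 elsewhere, the 10 in PNx replicate 3. The Z-disc gene Actn3 (ENSMUSG00000006457, chromosome 19, 4861216 to 4877909), an alpha-actinin of fast fibres that anchors the thin filaments, had 247 counts there and 0 to 10 elsewhere, again with the 10 in PNx replicate 3.

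Ckm and Atp2a1 were the only members of the set with more than 3 counts in all 24 libraries. Ckm (ENSMUSG00000030399, chromosome 7, 19404776 to 19422841), muscle creatine kinase, had 692 counts or 434 CPM in NaKtide replicate 6. In CPM it ran from 7.8 to 18.4 in Controls (median 16.7), 7.1 to 20.9 in the other NaKtide libraries (median 16.8), 1.68 to 13.8 in PNx (median 3.38) and 4.63 to 19.9 in PNx+NaKtide (median 14.3). PNx replicates 1, 2, 3 and 6 held the 4 lowest values of the series, at 1.68, 3.03, 3.73 and 2.1 CPM, whereas PNx replicates 4 and 5, at 10.5 and 13.8 CPM, lay within the range of the Controls. Atp2a1 (ENSMUSG00000030730, chromosome 7, 126445858 to 126463108), the calcium pump SERCA1 of the sarcoplasmic reticulum, had 653 counts or 410 CPM in NaKtide replicate 6, only 11 times its pooled level elsewhere and the smallest ratio of the 10. It ran from 40.3 to 48.1 CPM in Controls (median 45.6), 26.5 to 49.7 in the other NaKtide libraries (median 45.4), 10.1 to 69.1 in PNx (median 26.3) and 27.3 to 45.9 in PNx+NaKtide (median 32.5). The PNx libraries were spread most widely and enclosed the range of each other group once NaKtide replicate 6 was set aside.

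Levels can be compared between genes only per length of transcript, for which the deposited FPKM values were used. In NaKtide replicate 6 the order of FPKM was Tnnt3 at 726, Myh4 at 317, Tnnc2 at 242, Acta1 at 221, Ckm at 161, Myh1 at 141, Mylpf at 133, Atp2a1 at 127, Myh2 at 85.3 and Actn3 at 57.8. With 1 library no spread can be given for this order. It is an order of deposited values and may not be that of the mRNAs, because reads may be assigned to the opposite strand. In that library the opposite-strand gene had 93 times the counts of Tnnc2 and 11.5 times those of Myh2. Myh4 and Tnnt3 overlap no such gene. Reads on their opposite strand could not be seen in these counts, so that the limit holds for them as well. Among the heavy chains the FPKM level was highest for type IIB, then IIX, then IIA. In the other 23 libraries the order was another one, with median FPKM of 11.4 for Atp2a1, 4.22 for Ckm, 2.2 for Mylpf and 0.494 or less for the remaining 7 genes.

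Other genes of striated muscle, from lists set up by fibre type and function, were read in the same library. Of 9 further fast fibre genes, 8 had their highest CPM in NaKtide replicate 6, among them Tnni2, fast troponin I, with 475 counts against 0 to 10 elsewhere, and Pvalb, the calcium buffer parvalbumin, with 153 against 0 to 9. Myoz3 was at 0 in all libraries. Of 10 slow fibre genes, 7 were highest there, with 225 counts of the slow heavy chain Myh7 against 0 to 8 elsewhere and 165 of Tnnt1, slow troponin T, against 0 to 15. Per length the deposited values of the slow genes stayed lower, at 17.7 FPKM for Myh7 and 50.7 for Tnnt1, with the strand limit given above. Myl2, the slow regulatory light chain, was no part of this pattern, with 30 counts in NaKtide replicate 6 and its highest count, 1537, in PNx replicate 1. Of 5 developmental genes, 3 were highest in NaKtide replicate 6, led by the perinatal heavy chain Myh8 with 267 counts against 0 to 16, and at 15.4 FPKM. Myh8 shares words with the adult heavy chains, as given above.

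**Figure D2:**
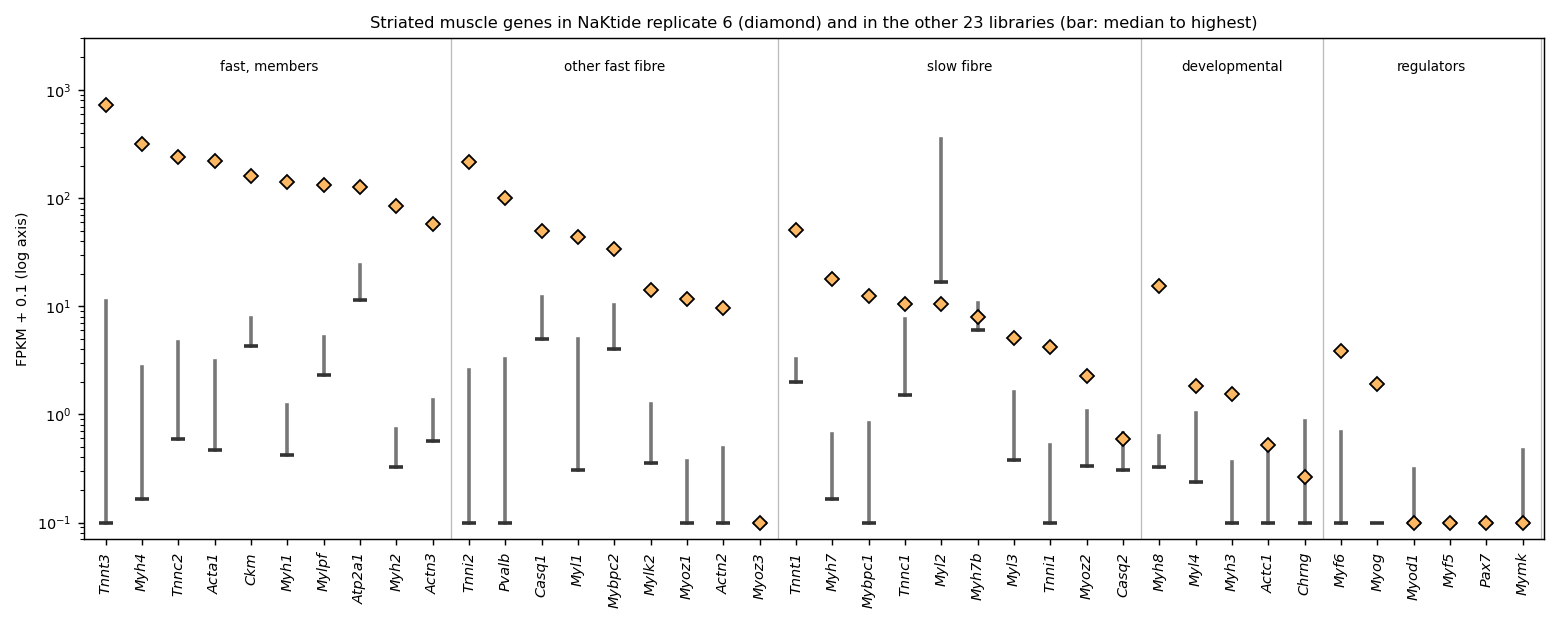
FPKM + 0.1 on a log axis for the 10 genes and 4 further lists, with a diamond for NaKtide replicate 6 and a bar from the median to the highest of the other 23 libraries. The diamonds of the 10 fast genes run from 57.8 to 726 FPKM and lie above their bars, the slow genes reach 50.7 FPKM with Tnnt1, and Myl2 lies below its bar.

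Of 18 sarcomere genes shared by all fibre types, 15 were highest in NaKtide replicate 6, such as Tcap, the titin cap of the Z-disc, with 218 counts against 0 to 8 and Des, the intermediate filament desmin, with 339 against 2 to 87. The gene of that list with the most counts, Ttn, was not, with 219 counts against a median of 467. Of 14 genes of excitation and calcium release, 12 were highest there, with 170 counts of the release channel Ryr1 against 0 to 21 and 202 of triadin (Trdn) against 0 to 8. Cacnb1, the gene of this list with the most counts, had 6 counts there and up to 277 in PNx replicate 1. Of 14 genes of muscle energy metabolism, 9 were highest there, led by myoglobin (Mb) with 820 counts against 9 to 258. The list of muscle regulators and satellite cell genes summed to 6.9 CPM, with 4 counts of Myog and 7 of Myf6, and Myod1, Myf5, Pax7 and Mymk were at 0, where 3 counts would have made 1.88 CPM. The 6 genes of the neuromuscular junction summed to 14.4 CPM there, and none of them was highest in that library. Of 8 cardiac genes, 1 was highest there, the heavy chain Myh6 with 61 counts, while Tnni3, Nppb, Myl7 and Mybpc3 were at 0. Of 9 smooth muscle genes, 1 was highest there, and the list summed to 223 CPM, within the 148 to 823 CPM of the other libraries.

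Markers of other tissues also placed NaKtide replicate 6 at the edge of the series. The 14 white adipocyte genes summed to 3917 CPM there, against 85.4 to 9313 CPM elsewhere, exceeded by PNx replicate 6 only. The 13 epididymis genes, read because visceral fat of male mice can include the epididymal pad, summed to 32.6 CPM there, the lowest of the 24 libraries, against 35.6 to 3021 CPM elsewhere, and 3 of them were at 0. The 5 B cell genes summed to 132 CPM, against 2.34 to 116 CPM, with 122 CPM from Ighm alone. The 8 testis germ cell genes summed to 643 CPM, against 87.4 to 1677 CPM elsewhere, but their members were split. Sycp3, of the meiotic chromosome axis, made up 633 CPM and was highest in this library. The spermatid genes Prm2, Tnp1 and Tnp2, which pack DNA in the sperm head, had 7, 1 and 2 counts there. These lay below the lowest of the other libraries, at 11, 5 and 4. Prm1 had 3 counts, equal to the lowest elsewhere, and Tex101 had 3, against 0 to 53. Odf1 and Acrv1 were at 0, which was also their lowest count elsewhere. The 6 erythrocyte genes, at 238 CPM, lay within the 9.27 to 2260 CPM of the other libraries. The 7 brown fat genes did so too, at 9.41 CPM against 2.94 to 103 CPM, where Cidea and Zic1 were highest in this library, with 6 and 5 counts, and Ucp1, their defining gene, was at 0. The part of these differences in the muscle gene counts was not tested. In tissue RNA, more cells of a type and more RNA per cell cannot be told apart.

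**Figure D3:**
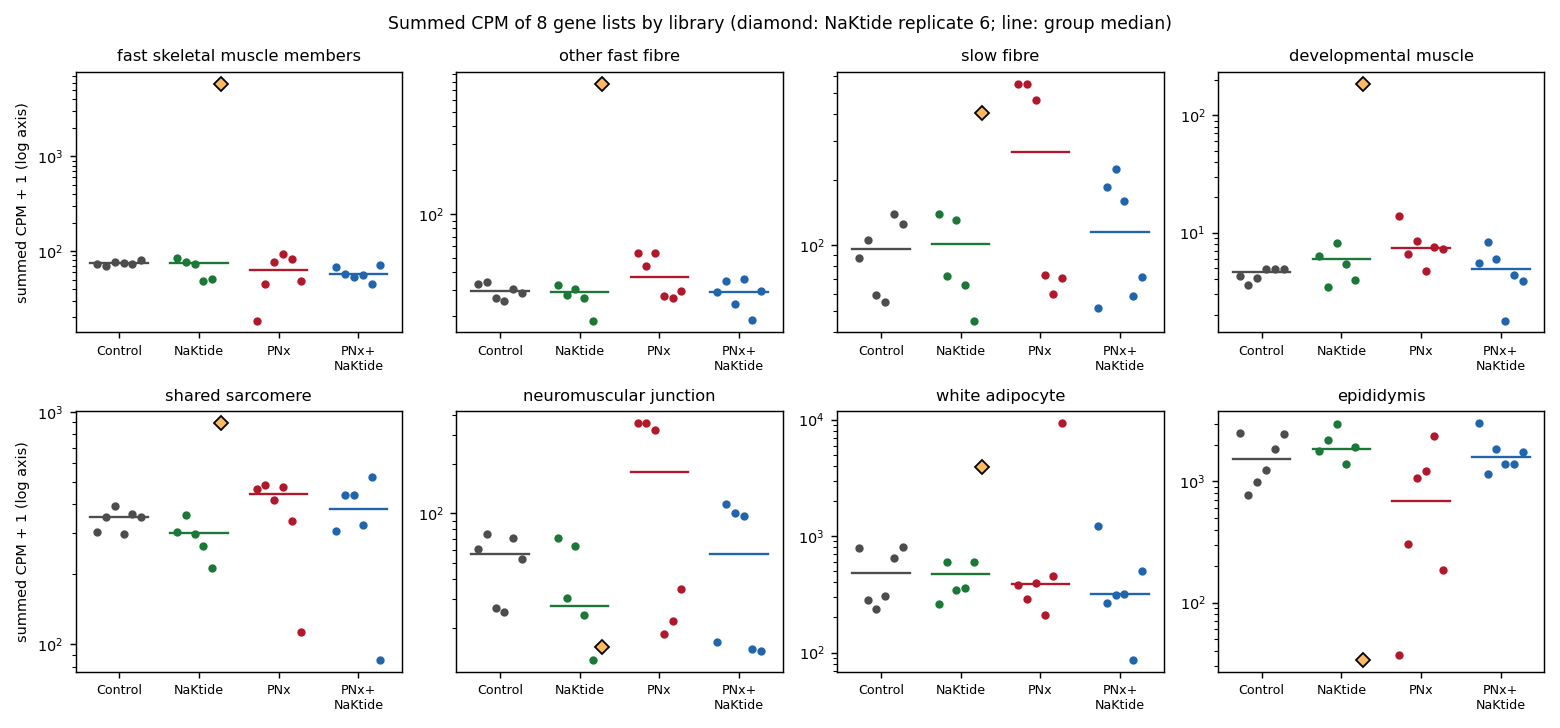
Summed CPM + 1 on a log axis of 8 gene lists, each panel with its own scale, in the 24 libraries by group, with a line at the group median and a diamond for NaKtide replicate 6. The diamond is the highest point for the members at 5843 CPM and for other fast fibre genes at 773 CPM. It is also highest for developmental genes at 184 CPM and shared sarcomere genes at 891 CPM, and lowest for epididymis genes at 32.6 CPM.

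The genes on the opposite strand held far more counts than the muscle genes they overlap. Rabep2 (ENSMUSG00000030727, a protein-coding gene of endosome fusion) shares 763 exon bases with Atp2a1 and had 33418 counts in NaKtide replicate 6, the most of any gene in that library. In the other 23 libraries it had 32 to 397 counts. A930016O22Rik, an antisense gene that shares 451 exon bases with Ckm, ranked 2 there with 31289 counts, against 16 to 578 elsewhere. Ube2c, which encodes a ubiquitin-conjugating enzyme of the cell cycle and shares 592 exon bases with Tnnc2, had 26585 counts against 4 to 778. Myhas, the antisense gene of the myosin cluster, shares 515 exon bases with Myh1 and had 16384 counts against 2 to 215. The antisense gene 9430073C21Rik shares 237 exon bases with Myh2 and had 10303 counts against 1 to 101. Together the 5 held 117979 counts, 7.4% of the library and 30.6 times the 3852 counts of the 5 muscle genes. In the other libraries their sum was 63.4 to 792 CPM. The values of these 5 genes may include reads of the muscle genes, and the share was not measured here.

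**Figure D4:**
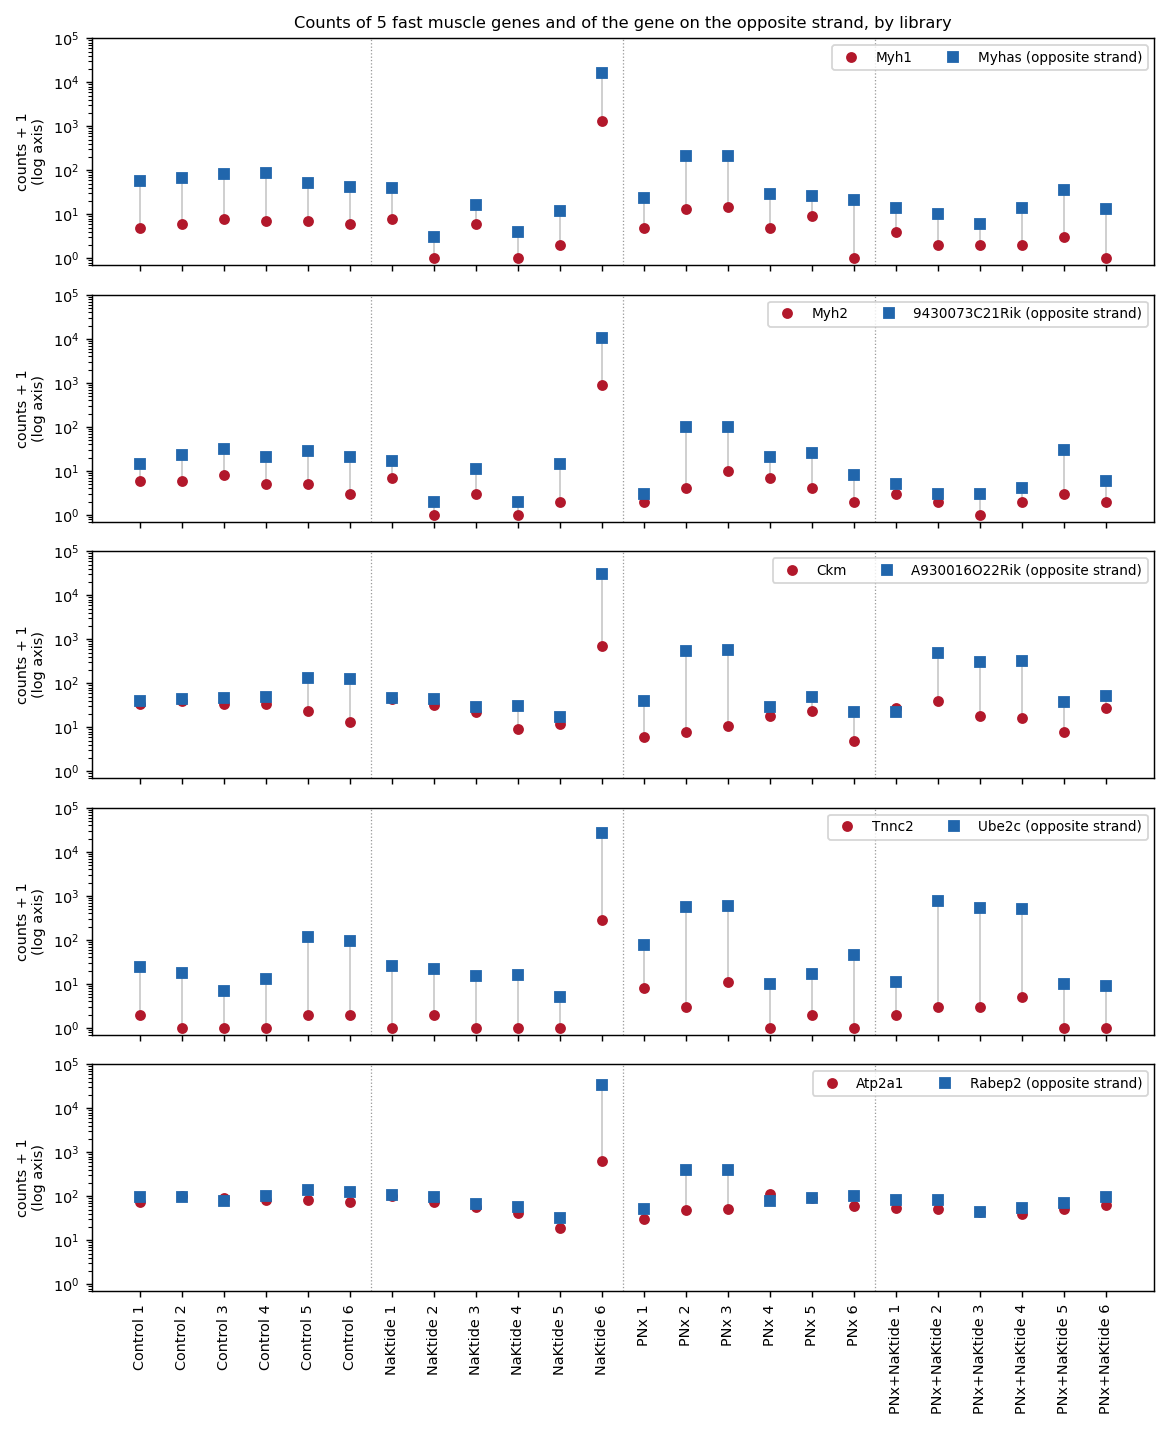
Counts + 1 on a log axis in each of the 24 libraries for 5 fast muscle genes (circles) and the gene on the opposite strand of each (squares), with dotted lines between groups. Both symbols peak in NaKtide replicate 6, the squares at 10303 to 33418 counts, and the squares of PNx replicates 2 and 3 lie above those of the other PNx libraries in all 5 panels.

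Lesser signals were seen in further libraries, mostly on the opposite strand. In PNx replicates 2 and 3, A930016O22Rik had 556 and 578 counts, Ube2c 569 and 593, Rabep2 390 and 397, Myhas 215 and 208, and 9430073C21Rik 98 and 101. The remaining 4 PNx libraries had at most 49, 77, 101, 28 and 25 counts of these genes. In the same PNx replicates 2 and 3, Myh4 and Tnnt3 had their 2 next highest counts of the series, while Ckm stood at 7 and 10 counts, near the bottom of its range. In PNx+NaKtide replicates 2, 3 and 4 the pattern was a partial one, with 484, 311 and 330 counts of A930016O22Rik and 778, 540 and 493 of Ube2c. In those libraries Rabep2 had 43 to 81 counts, Myhas 5 to 13 and 9430073C21Rik 2 or 3, no higher than in the rest of their group, and Myh4 had 0 or 1. Control replicates 5 and 6 had 129 and 124 counts of A930016O22Rik and 115 and 96 of Ube2c, against at most 48 and 23 in the other Controls. Elsewhere among the striated muscle lists, 28 of the 90 genes other than the 10 share exon bases with an opposite-strand gene, in 33 pairs. The opposite gene had more counts than the muscle gene in NaKtide replicate 6 in 21 of the pairs and had its highest CPM of the series there in 23. Myoglobin with 820 counts and its opposite gene Gm49540 with 8817, and Myh7 with 225 and the antisense gene Mhrt with 5472, were among them.

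The comparison of NaKtide with Control asked what adipocyte NaKtide did without renal failure. For the 10 genes its answer rested on NaKtide replicate 6. With all libraries the log2 fold changes from edgeR were 8.15 ± 2.01 (SE) for Tnnt3, 7.42 ± 1.94 for Myh4, 6.93 ± 1.72 for Acta1 and 6.49 ± 1.64 for Tnnc2. Those of Tnnt3, Acta1 and Tnnc2 stand against at most 3 counts in any Control library and depend on the small constant added before taking logs. Tnnc2 had 287 counts over the NaKtide and 3 over the Control libraries, a ratio of pooled CPM of 129 with a 95% counting interval (exact, from the binomial share) of 43.7 to 629, which covers counting error only. The log2 fold change was 5.49 ± 1.44 for Myh1, 5.25 ± 1.38 for Myh2 and 3.78 ± 1.07 for Actn3. It was 3.03 ± 0.91 for Mylpf, 2.49 ± 0.80 for Ckm and 1.17 ± 0.57 for Atp2a1. Their median was 5.37, and that of all genes tested was 0.00. By edgeR's quasi-likelihood test with Benjamini-Hochberg adjustment 0 of the 10 passed an adjusted p of 0.1, with adjusted p from 0.629 to 1, as did 0 of all 26116 genes (0%). At an unadjusted p under 0.05 there were 9 of the 10, all higher in NaKtide, against 3.95% of all genes in either direction and 2.04% higher. This count depended on the tool and on weighting. Here and below voom was run with sample weights, which can lower the weight of an outlying library. By the same threshold voom had 0 of the 10, with 8.45% of all genes, limma on log2(FPKM + 1) had 0, with 3.9%, and limma on log2(FPKM + 0.1) had 0, with 4.23%. DESeq2 gave a p for Atp2a1 alone, which was under 0.05, as in 3.7% of all genes. At the adjusted threshold DESeq2, which called 0.0115% of all genes, gave no adjusted p for 9 of the 10 and did not call Atp2a1, and voom called 0, with 0.00766% of all genes.

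Without NaKtide replicate 6 the same comparison gave a median log2 fold change of -0.37, with 2 of the 10 above 0 and 0 of the 10 at an unadjusted p under 0.05 in edgeR, against 2.98% of all genes. The value was -1.70 ± 1.27 for Myh4, which then rested on 3 counts in the NaKtide group, 0.11 ± 0.52 for Ckm and -0.11 ± 0.44 for Atp2a1. Of the 10 genes, 8 changed sign when this library was left out, all but Ckm and Mylpf. The higher summed level of the NaKtide group, 1029 ± 2359 CPM (SD, n = 6) against 73.5 ± 3.88 CPM (SD, n = 6) in Control, became 65.8 ± 15.9 CPM (SD, n = 5). In the other striated lists, at an unadjusted p under 0.05 in edgeR, 7 of 8 further fast fibre genes tested, 3 of 10 slow and 3 of 4 developmental genes were higher in NaKtide. So were 9 of 18 shared sarcomere, 7 of 13 excitation and calcium and 5 of 13 energy genes, against 2.04% of all genes. With voom 0, 1, 2, 2, 1 and 1 genes of these lists, in the same order, were higher at that threshold. Of the shared sarcomere genes 1 was lower with voom. For all genes the voom share was 8.45% in either direction. Some of these genes passed the count filter through NaKtide replicate 6 alone. Without that library 0 of 6 further fast fibre, 0 of 9 slow and 0 of 4 developmental genes still tested were under that p in edgeR. The same held for 0 of 14 shared sarcomere, 0 of 13 excitation and calcium and 0 of 11 energy genes, against 2.98% of all genes. The counts with and without that library thus refer to different numbers of genes. None passed the adjusted threshold in either edgeR fit.

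**Figure D5:**
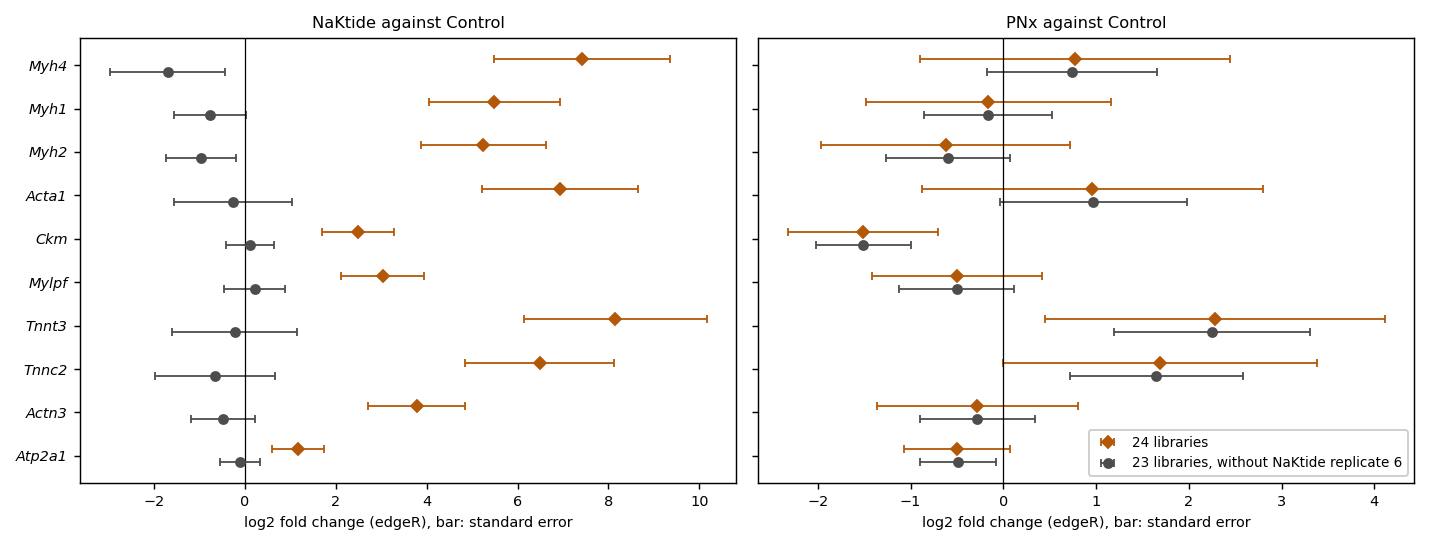
Log2 fold change of the 10 genes from edgeR, with standard errors as bars, for NaKtide against Control (left) and PNx against Control (right), from 24 libraries (diamonds) and without NaKtide replicate 6 (circles). On the left the diamonds run from 1.17 to 8.15 and the circles from -1.70 to 0.21, and on the right both sets nearly coincide while the bars of the circles are shorter.

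The comparison of PNx with Control asked what experimental renal failure changed. In it edgeR called 0 of the 10 genes at an adjusted p of 0.1, with adjusted p from 0.228 to 0.946, where 0.0766% of all genes (20 of 26116) were called. At an unadjusted p under 0.05 there were 0 of the 10 as well, against 25.4% of all genes. The median log2 fold change of the 10 was -0.22, below the 0.36 of all genes tested, with 4 of them above 0. Ckm had the lowest value, -1.51 ± 0.81 (adjusted p = 0.228 in edgeR), and Atp2a1 had -0.50 ± 0.57 (adjusted p = 0.574). The 4 groups shared 1 estimate of the spread, and the standard errors were smaller without NaKtide replicate 6. Without it 2 of the 10 were at an unadjusted p under 0.05 in edgeR, against 27.3% of all genes. Ckm was at -1.51 ± 0.51, with an unadjusted p of 0.00646 and an adjusted p of 0.118. Tnnt3 was at 2.25 ± 1.06, with an unadjusted p of 0.0428 and an adjusted p of 0.172, and its counts in PNx were mostly those of replicates 3 and 2. DESeq2, which called 29.7% of all genes, gave no adjusted p for 9 of the 10 and called 0, whereas voom, which called 63.8% of all genes, called Ckm, Atp2a1 and Mylpf lower and Tnnc2 higher. The 4 low PNx libraries of Ckm were not of 1 kind in other respects. PNx replicates 1 to 3 had 323 to 353 CPM of neuromuscular junction genes and 463 to 550 CPM of slow fibre genes, led by Myl2 among the slow fibre genes and by Chrna1 and Chrne, subunits of the muscle acetylcholine receptor, while PNx replicate 6 had 33.5 and 70.2 CPM and the highest white adipocyte sum. Whether these differences bear on Ckm was not tested.

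The comparison of PNx+NaKtide with PNx asked what NaKtide did in renal failure. Here edgeR called 0 of the 10 and 0 of all genes (0%), with 0 of the 10 at an unadjusted p under 0.05, against 12.7% of all genes. Ckm was at 1.32 ± 0.81 (adjusted p = 0.445), higher in PNx+NaKtide, and at 1.32 ± 0.51 without NaKtide replicate 6, with an unadjusted p of 0.0157 and an adjusted p of 0.306. Atp2a1 was at 0.01 ± 0.57 (adjusted p = 0.992), and its sign turned with the scaling, to -0.12 with DESeq2 size factors and -0.02 with library sizes alone. The median of the 10 was -0.36, close to the -0.37 of all genes. Without NaKtide replicate 6, 1 of the 10 was higher and 2 were lower at an unadjusted p under 0.05, against 14.2% of all genes. DESeq2 called 0 of the 10, with no adjusted p for 9, and 5.8% of all genes. Voom, which called 44% of all genes, called Ckm, Atp2a1 and Acta1 higher and Myh4 and Tnnt3 lower in PNx+NaKtide.

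In PNx+NaKtide against NaKtide, which read nephrectomy under NaKtide, edgeR called 0 of the 10 and 0 of all genes (0%), and at an unadjusted p under 0.05 all 10 were lower in PNx+NaKtide, against 4.09% of all genes in either direction and 2.58% lower. At that threshold voom had 0 of the 10, with 5.84% of all genes, and limma had 0 on log2(FPKM + 1) and 0 on log2(FPKM + 0.1), with 2.35% and 2.87%, while DESeq2 had Atp2a1, the only one with a p, and 2.83% of all genes. Ckm was at -2.67 ± 0.81 and Atp2a1 at -1.65 ± 0.58, and without NaKtide replicate 6 at -0.30 ± 0.52 and -0.37 ± 0.44. Without that library 1 of the 10 was at an unadjusted p under 0.05, and it was higher, against 2.57% of all genes. The median log2 fold change over the 10 went from -4.79 to -0.42 when the library was left out, and that over all genes from 0.04 to 0.06. The interaction of nephrectomy and NaKtide was likewise called for 0 of the 10 and 0 of all genes (0%) by edgeR, while 7 of the 10 were below 0 at an unadjusted p under 0.05, against 9.27% of all genes in either direction and 5.79% below 0. By the same threshold voom had 4 of the 10, 2 above and 2 below 0, with 33.5% of all genes, limma had 0 on log2(FPKM + 1) and 0 on log2(FPKM + 0.1), with 9.73% and 8.4%, and DESeq2 had 0, with a p for Atp2a1 only and 12.1% of all genes. The median of the interaction over the 10 in edgeR was -5.82, and 0.04 without NaKtide replicate 6, with 0 of the 10 at an unadjusted p under 0.05, against 7.13% of all genes. DESeq2 called 0 of the 10 in both, with 9 without an adjusted p, and 0.00766% and 0.36% of all genes. Voom called 0 of the 10 and 0% of all genes in the former and Ckm, above 0, in the latter, where it called 25.5% of all genes. These 5 comparisons share groups and are not independent of each other.

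For the 5 opposite-strand genes edgeR called 0 in each of the 5 comparisons. At an unadjusted p under 0.05 it had all 5 in NaKtide against Control (3.95% of all genes), PNx+NaKtide against NaKtide (4.09%) and the interaction (9.27%), and 0 in the other 2, where 25.4% (PNx against Control) and 12.7% of all genes were. In NaKtide against Control all 5 had log2 fold changes between 5.62 ± 1.59 (Myhas) and 6.71 ± 2.01 (Ube2c), with adjusted p from 0.629 to 0.814 in edgeR. In PNx against Control they lay between -0.19 ± 1.32 (Myhas) and 1.40 ± 1.61 (Ube2c). DESeq2 gave no adjusted p for any of the 5. Voom called Ube2c higher in PNx than in Control, where it called 63.8% of all genes. It called Myhas lower in PNx+NaKtide than in PNx, where it called 44% of all genes.

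Without NaKtide replicate 6 all 5 opposite-strand genes turned to below 0 in NaKtide against Control, from -1.76 ± 0.68 (Myhas) to -0.07 ± 0.42 (Rabep2), and Myhas alone was at an unadjusted p under 0.05 in edgeR, against 2.98% of all genes. In PNx+NaKtide against NaKtide, Ube2c turned from -3.83 ± 1.75 to 4.05 ± 1.27 (unadjusted p = 0.00415 and adjusted p = 1 in edgeR) and A930016O22Rik from -4.63 ± 1.57 to 2.34 ± 0.86 (unadjusted p = 0.0119 and adjusted p = 1 in edgeR), against 2.57% of all genes. These are the genes that were high in PNx+NaKtide replicates 2, 3 and 4. Myhas, 9430073C21Rik and Rabep2 moved from between -7.63 and -6.25 to between -0.44 and -0.05. In the interaction 0 of the 5 remained at an unadjusted p under 0.05, against 7.13% of all genes, with Ube2c going from -5.22 ± 2.35 to 2.66 ± 1.56, A930016O22Rik from -5.41 ± 2.04 to 1.56 ± 1.12 and Myhas from -7.24 ± 2.06 to 0.14 ± 0.91.

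All 10 genes shared a peak in NaKtide replicate 6, and without that library only some pairs of them remained closely correlated. Over the 24 libraries the genes most like the mean log2 CPM profile of the 10, among 19743 genes with a mean of at least 1 CPM, were Eef1a2 (Pearson r = 0.97), Rabep2 (r = 0.96), Pvalb (r = 0.96), the pseudogene Mylf-ps (r = 0.96), H19 (r = 0.95), Actn2 (r = 0.93), Adora1 (r = 0.93), Tcap (r = 0.93), Tnni2 (r = 0.92) and Trdn (r = 0.92), with 6 unnamed gene models passed over. These correlations are descriptions over 24 libraries that share 1 extreme value. Eef1a2, the elongation factor form of muscle and neurons, had 113 counts in NaKtide replicate 6 and 0 or 1 elsewhere. H19, an imprinted non-coding RNA, had 56 counts against 0 to 2. It shares 70 and 71 exon bases with the opposite-strand genes Gm27786 and Gm27483, which had 342 and 426 counts in NaKtide replicate 6. Adora1, with 719 counts against 2 to 33, shares 1162 exon bases with Mybph, a myosin-binding protein gene on the opposite strand that had 1271 counts. Without NaKtide replicate 6 the r of the 10 named genes ran from -0.17 (Mylf-ps) to 0.65 (Rabep2). Among the members themselves, over those 23 libraries, the highest r were 0.80 for Myh1 with Myh2, 0.78 for Myh4 with Tnnt3 and 0.74 for Ckm with Atp2a1, and the lowest was -0.62 for Tnnc2 with Atp2a1. Most members had too few counts in these libraries for such values to be read further.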

How the data were processed

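RNA from 24 mouse adipose samples was sequenced as stranded, paired-end libraries. Per the labels, the authors trimmed reads with Trimmomatic 0.38 and aligned them to GRCm38 with HISAT2 2.1.0, and per their methods counted reads per gene with GenomicAlignments. No source used here gives the strand setting or annotation release. The deposited raw counts were used for all tests, and the deposited FPKM values for levels between genes. Symbols, coordinates and exon overlaps came from GENCODE M21, which held 54165 of the 54232 genes.

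Genes with more than 10 counts in all were fitted in 1 model of 4 group means by edgeR 4.0.16 (TMM scaling, quasi-likelihood F-test, robust dispersions), with Benjamini-Hochberg adjustment over all genes and a threshold of 0.1. Log2 CPM values carry a prior count of 2, whereas the log2 fold changes carry the smaller default prior count of edgeR's fit. DESeq2 1.42.0, limma 3.58.1 (voom with sample weights, or log2 FPKM with a pseudocount), other scalings and filters, a replicate block and leaving out each library were alternatives. The fits were tested on simulated data. CPM is the count scaled to library totals of 1e6. Depth limits precision to about 3 counts per gene and library.

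The 10 genes and all lists were chosen with earlier results of these data known. Named genes were the members, their opposite-strand partners, the most counted gene of each list with examples chosen after their values were seen, and the 10 genes of most similar profile. Replicate numbers are not given as pairs by the labels and were not treated as pairs in the main fit. Libraries within a group differed by more than sampling noise.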

Additional observations from a re-analysis of the deposited data

Results flagged for a closer look

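A library was flagged where its gap to the nearest of its group exceeded 0.625 of the range of the 6 values. Chance meets this rule in about 1 in 20 groups of normally distributed values, a rate that does not hold for low counts. The genes were chosen with their summed levels by library known, so that the flags are a description and not a test. Of 60 combinations of gene and group examined, 21 were flagged, and 15 of these were NaKtide replicate 6, once for each of the 10 muscle genes and the 5 opposite-strand genes. Its values were 1765 CPM for Myh4, 830 for Myh1, 563 for Myh2, 314 for Acta1, 434 for Ckm, 131 for Mylpf, 1063 for Tnnt3, 179 for Tnnc2, 155 for Actn3 and 410 for Atp2a1. For the opposite-strand genes they were 10275 CPM for Myhas, 6462 for 9430073C21Rik, 19623 for A930016O22Rik, 16673 for Ube2c and 20959 for Rabep2.

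The other 6 flags were spread over 4 libraries and are small values. In PNx replicate 3, Myh4 stood at 16.1 CPM (43 counts) and Tnnt3 at 17.9 CPM (48 counts), where the rest of the PNx group reached 4.33 and 3.9 CPM. In PNx replicate 6, Acta1 stood at 3.67 CPM, which is 7 counts. In PNx+NaKtide replicate 2, Myh4 stood at 0.524 CPM, which is 1 count where the other 5 had 0. In PNx+NaKtide replicate 5, Myhas stood at 22.5 CPM (34 counts) and 9430073C21Rik at 19.2 CPM (29 counts), against at most 10.1 and 3.59 CPM in the rest of the group.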

How the results depend on the processing

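No alternative with edgeR called any of the 10 genes. With voom and sample weights 4 were called in PNx against Control, 5 in PNx+NaKtide against PNx and 1 in the interaction. One opposite-strand gene was called in each of the first 2. Of all genes, voom called 63.8%, 44% and 25.5% in these comparisons. Only Ckm and Atp2a1 passed the filterByExpr filter. The median log2 fold change in NaKtide against Control, 5.37, became 2.01 with that filter, 0.27 with voom, 1.00 on log2(FPKM + 1), 0.98 on log2(FPKM + 0.1) and 1.68 with the replicate block. For PNx+NaKtide against NaKtide the values, in the same order, were -2.34, -0.75, -1.07, -1.27 and -2.15, and for the interaction -1.46, -0.20, -1.02, -1.21 and -2.73. Deviations of same-numbered libraries correlated from -0.592 to 0.712, with a median of 0.124, and 10 of 24 libraries matched their own number best. The labels do not give the numbers as pairs, and the main fit does not use them. Whether same-numbered libraries share a factor was not settled by these values. The replicate block gave 0 calls. With the block, 1, 3 and 2 of the 10 were at an unadjusted p under 0.05 in these 3 comparisons, against 9, 10 and 7 without it, where 3.45%, 2.86% and 7.41% of all genes were.

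Leaving out 1 library at a time moved these 3 medians from -0.37 to 5.63, from -5.06 to -0.42 and from -6.15 to 0.04, with NaKtide replicate 6 left out at the end nearest 0. In NaKtide against Control the log2 fold change ran from -1.70 to 8.28 for Myh4, -0.77 to 5.75 for Myh1, -0.96 to 5.51 for Myh2, -0.26 to 7.58 for Acta1, -0.23 to 8.85 for Tnnt3, -0.66 to 6.78 for Tnnc2, -0.48 to 4.03 for Actn3 and -0.11 to 1.34 for Atp2a1, each below 0 only without NaKtide replicate 6. Voom turned Myh1 to -0.79, Myh2 to -0.81 and Actn3 to -0.25. Atp2a1 in PNx+NaKtide against PNx ran from -0.20 to 0.51, and was -0.12 with DESeq2 size factors, -0.02 with library sizes, -0.08 with filterByExpr and -0.12 in DESeq2. The cause was not tested. NaKtide replicate 6 exceeded the median summed CPM of the other libraries 59.9 times without Myh4 and 212 times without Atp2a1. Outside that library 8 of the 10 genes had 3 or fewer counts in many libraries, which limits what any setting could detect.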

Other observations

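Genes outside muscle that followed the 10 genes once NaKtide replicate 6 was left out, over 23 libraries and as a description, were Rabep2 and Crisp1 (Pearson r = 0.65 each), Defb47 (r = 0.64), Lcn9, Cst11 and Lcn8 (r = 0.61 each). Rabep2 shares 763 exon bases with Atp2a1, a member of the set, so that its counts may hold reads of a gene in the mean profile. Most of the 10 genes had too few counts in these libraries for such values to be read further. Crisp1, Lcn9, Cst11 and Lcn8 are secretory genes of the epididymis. Crisp1 and Lcn9 were at 0 counts in NaKtide replicate 6, Cst11 and Defb47 had 1 and Lcn8 had 3, against medians of 23, 77, 96, 80 and 197 counts elsewhere. In PNx replicate 1, where the 10 genes had their lowest sum at 17.5 CPM, the epididymis list was at 35.6 CPM, its second lowest value of the series.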
